A study of Mus musculus with 6 samples.

Results

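The cells described here are lymph node cells chosen by a gate on Jchain, the joining chain of polymeric antibodies, and on further plasma cell genes. A cell entered the gate with no UMI (unique molecular identifier, 1 counted RNA molecule) of Cd3d, Cd3e or Cd3g, at least 5 UMIs of Jchain, and at least 2 of 5 conditions. The conditions were at least 2 UMIs of Xbp1, 1 of Prdm1, 1 of Sdc1, 2 of Tent5c or 3 of Mzb1. The gate held 245 of 19262 retained cells. They came from draining lymph nodes of 3 Pik3cg knockout (KO) mice and 3 wild-type (WT) mice, each immunized 3 times with NP-Ova in alum and sampled on day 34. NP-Ova is ovalbumin carrying the hapten NP, and alum is an adjuvant. The labels give neither the mice's age nor strain, nor the part of Pik3cg that was deleted. B cells had been enriched by negative selection with an additional depletion of IgD-bearing cells, and this fraction made up 70% of the loaded mixture, with 30% untouched cells. An antibody hashtag marked the cells of each mouse. The pooled cells were split over 2 like lanes, in which gene expression and B cell receptor transcripts were captured from droplets.

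Antibody-secreting cells arise from activated B cells, in the germinal centre or outside it. Prdm1 (Blimp-1) and Irf4 switch off the B cell programme, Xbp1 enlarges the endoplasmic reticulum, and immunoglobulin RNA comes to make up a large share of all transcripts. In the response to NP of mice carrying the VH186.2 gene (IGHV1-72), heavy chains of this gene paired with lambda light chains are known to bind the hapten. A change of tryptophan to leucine at codon 33 is known to raise their affinity.

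The gate gathered cells of differing character. In 205 of the 245 cells, immunoglobulin genes gave 0.0729% to 2.66% of the UMIs (median 0.700%), and in the other 40 cells they gave 5.07% to 65.4% (median 36.3%). No gated cell lay between, and the line at 5% was drawn after seeing the data, so these immunoglobulin-rich and immunoglobulin-poor cells are described without a test. In germinal centre B cells, taken from the same mice by at least 3 UMIs over at least 2 of 11 germinal centre markers (3639 cells), the median was 0.612%. The median number of Jchain UMIs was 217 in rich cells, 9 in poor cells and 3 in germinal centre B cells.

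**Figure D1:**
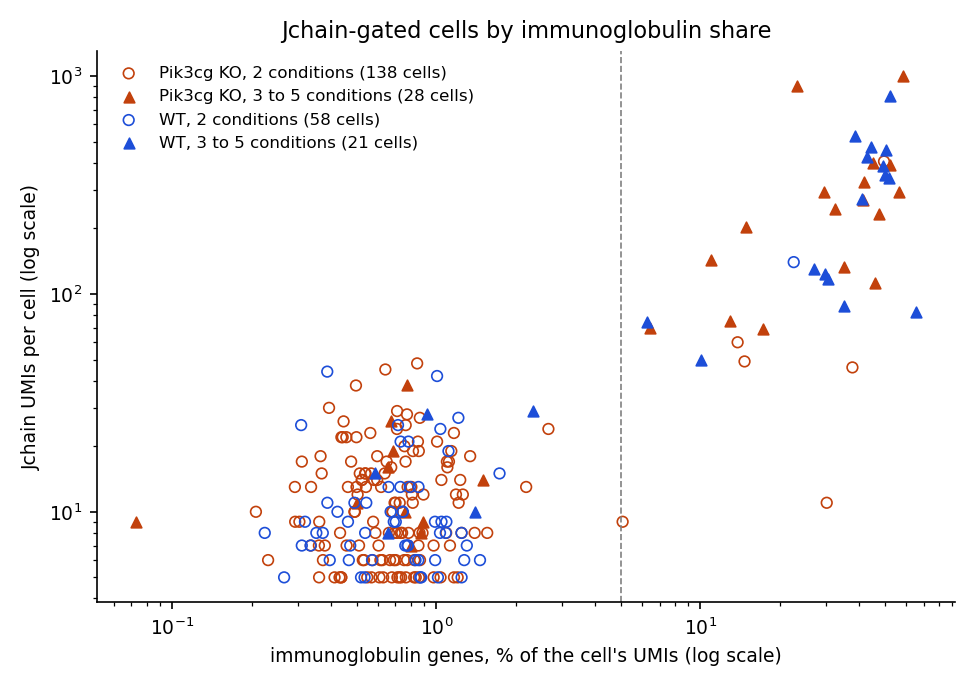
Each point is 1 of the 245 gated cells, with the percentage of its UMIs from immunoglobulin genes on the x axis and its Jchain UMIs on the y axis, both on log scales. Colour gives the genotype, triangles mark cells that met 3 to 5 conditions, and the dashed line at 5% separates the 40 immunoglobulin-rich cells on the right from the 205 poor cells.

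Germinal centre markers, which the gate did not use, summed in the poor cells to near the level of germinal centre B cells, which went against the label of antibody-secreting cells for most of the gate. Summed UMIs of the germinal centre markers were 23.3 per 10000 in poor cells and 11.7 in rich cells, against 24.7 in germinal centre B cells. In rich cells these UMIs came mostly from Basp1 and Eaf2. Without these 2 genes the sums were 16.0 in poor cells and 2.38 in rich cells, against 16.9 in germinal centre B cells, and Bcl6, the germinal centre repressor, was at 0 in rich cells. Sdc1, the syndecan that serves as the surface marker of plasma cells, is itself a gate condition and is given as a description only. It was counted in 26 of 40 rich cells and in 1 of 205 poor cells, and in 0.432% of 4394 Cd3-positive cells, which should lack it. Median depths were 9822.5 UMIs in rich, 10191 in poor and 3175.5 in Cd3-positive cells. Poor cells entered mostly through Xbp1 and Mzb1, since 135 of them met those conditions and no other. Of the 245 cells 196 met exactly 2 conditions, 26 met 3, 12 met 4 and 11 met 5. At the edge of the gate, 28 members had exactly 5 Jchain UMIs, and 27 cells that met at least 2 conditions stayed outside with 4.

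Gated cells that met at least 3 conditions, 49 in number, lay closer to the label, with 33 rich and 16 poor cells. They are set beside the whole gate in each comparison. The criterion for germinal centre B cells was met by 45 of these 49 cells, and by 33 rich cells of the whole gate. Without Basp1 and Eaf2 their germinal centre markers summed to 8.04 UMIs per 10000, against 2.38 in rich and 16.0 in poor cells. Outside immunoglobulin genes they held 424098 UMIs, while all rich cells of the gate held 256268. A large part of their counts therefore came from poor cells, and its weight in the gene values was not tested. Cells with at least 3 conditions numbered 7, 18 and 3 in KO1, KO2 and KO3 and 11, 4 and 6 in WT1, WT2 and WT3. None of them had fewer than 4062 UMIs, while the 3 rich cells of KO3 had a median of 1616. Most of the KO3 cells with at least 3 conditions were therefore poor cells, and their part in the values of KO3 was not tested.

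The gate counts molecules, so it also selects deep cells. Gated cells had a median of 10128 UMIs, against 4795 in germinal centre B cells and 2444 in other B cells, which carried no germinal centre marker UMI (5045 cells). Comparisons were therefore repeated against germinal centre B cells with at least 6868 UMIs, the lower quartile of the gated cells. That alternative was added after seeing the data. Of the T cell markers Cd3d, Cd3e and Cd3g were at 0 by the rule of the gate. Trbc2, Cd4 and Cd8a were at 0 as well. The T cell list summed to 0.0377 UMIs per 10000 in gated cells, against 0.0407 in germinal centre B cells. The macrophage and monocyte list summed to 0.102 in gated cells (0.0197 to 0.351 over mice), with C1qa and C1qb at 0. It summed to 0.110 in germinal centre B cells (0.0506 to 0.326), with C1qb at 0. The plasmacytoid dendritic cell list summed to 4.10 UMIs per 10000 in gated cells (2.33 to 22.9 over mice) and 14.9 in cells with at least 3 conditions (4.09 to 83.9). It summed to 1.93 in germinal centre B cells (1.79 to 2.78). Its defining genes Siglech, Ccr9 and Cox6a2 were at 0 in gated cells, and its sum came from Ly6c2, Bst2 and Tcf4. The part of such cells in the rises of Ly6c2 and Bst2 given below was not tested. No doublet caller was run. Among 3901 barcodes with several hashtags 74 (1.90%) met the gene gate, against 1.27% of retained cells, and the part of doublets in the results was not tested. No gated cell shared its barcode between lanes.

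The genes that made the gate are described by their levels without a test, in CPM, the gene's UMI count scaled to a common total of UMIs outside immunoglobulin genes. In cells with at least 3 conditions, Jchain reached 16568, 22647 and 22613 CPM in KO1, KO2 and KO3 and 38676, 30447 and 34480 CPM in WT1, WT2 and WT3. Germinal centre B cells of the same mice had 603 to 777 CPM. Prdm1, which encodes Blimp-1, lay at 43.6 to 233 CPM in cells with at least 3 conditions and at 0.355 to 6.61 CPM in germinal centre B cells. Mzb1, a chaperone of antibody assembly, lay at 2026 to 10521 CPM, against 640 to 814 CPM.

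The secretory programme set cells with at least 3 conditions apart from germinal centre B cells. UMIs were summed per mouse and class and compared within mice by edgeR's quasi-likelihood test, with Benjamini-Hochberg adjustment and a threshold of 0.05. Both genotypes were pooled, with 6 mice in each fit. The fits share information on variability between genes. For a gene that varied widely between mice, the SE and adjusted p can therefore understate that spread, and values per mouse or SDs show it. For the whole gate 812 of 7686 tested genes passed (10.6%), 467 higher (6.08%) and 345 lower (4.49%). For cells with at least 3 conditions 734 of 6053 passed (12.1%), 420 higher (6.94%) and 314 lower (5.19%). These shares over all genes are the background of the list counts below. Without KO2, which held 91 of the gated cells, 329 genes passed for the whole gate, and without WT1 471 passed with at least 3 conditions. DESeq2 called 518 for the whole gate. The edgeR comparisons shared 178 higher genes, which is 38.1% of those of the whole gate and 42.4% of those with at least 3 conditions. Against the deeper germinal centre B cells 107 of 6675 genes passed for the whole gate (1.6%), 101 higher (1.51%) and 6 lower (0.0899%). For cells with at least 3 conditions 541 of 3573 passed (15.1%), 373 higher (10.4%) and 168 lower (4.7%). Of those 373 higher genes 340 (91.2%) were also higher against all germinal centre B cells, and of the 168 lower genes 124 (73.8%) were also lower. Both comparisons use the same gated cells, and the deeper cells are part of all germinal centre B cells. Much of this overlap is therefore built in. Levels in immunoglobulin-rich and poor cells, pooled over mice, are given beside the genes below. Genes near 0 in germinal centre B cells entered a fit only through the gated cells, so they could only be found higher. Where such a gene had at most 20 UMIs in all germinal centre B cells, the ratio of pooled CPM with its 95% exact interval is given in place of a fitted difference. That interval covers counting error only, not the spread between mice.

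Genes of the plasma cell programme were higher in 22 of 26 tested members and lower in 0 in cells with at least 3 conditions (median log2 fold change 2.69). Over all genes tested the median was -0.19. In the whole gate 17 of 25 rose and 1 fell (median 1.01, against -0.01 over all genes). The list holds Fkbp11, Creb3l2 and Tnfrsf17, with 5, 9 and 8 UMIs in germinal centre B cells. Such genes could only be found higher, and no count without them is given. Fkbp11, a prolyl isomerase of the secretory pathway, stood at 319, 377 and 131 CPM in KO1, KO2 and KO3 and at 668, 1331 and 835 CPM in WT1, WT2 and WT3. In germinal centre B cells it was at 1.42 CPM in KO1, at 0.245 CPM in WT1 and at 0 in the other mice. With 193 UMIs in cells with at least 3 conditions and 5 in germinal centre B cells, the ratio was 1857 (782 to 5785), and Fkbp11 was higher in 6 of 6 mice. Pooled over cells, Fkbp11 was at 792 CPM in rich cells and 0.833 CPM in poor cells, against 0.245 CPM in germinal centre B cells.

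Irf4, the transcription factor that drives plasma cell fate, was named here as a canonical factor after its values were seen. It averaged 221 ± 129 CPM in cells with at least 3 conditions and 30.9 ± 3.62 CPM in germinal centre B cells (SD, n = 6 mice), a log2 difference of 2.70 (SE 0.30) with an edgeR adjusted p of 7.71e-17. The lowest gated value, 109 CPM in KO3, lay above the highest germinal centre value of 36.4 CPM. Creb3l2, a transcription factor of the secretory pathway activated by cleavage, had 41 UMIs in cells with at least 3 conditions and 9 in germinal centre B cells, a ratio of 219 (105 to 513). Tnfrsf17, the receptor BCMA that supports plasma cell survival, had 29 and 8 UMIs in these classes, a ratio of 174 (77.8 to 442). Derl3, a channel component of protein disposal, rose by 4.82 (SE 0.33), and Sec11c, a catalytic subunit of signal peptidase, by 3.16 (SE 0.23). Tnfrsf17 was at 0 in the cells of WT3 and at 34.3 to 301 CPM in the other 5 mice, so its level varied widely with these few cells. Ly6c2, a surface antigen found on plasma cells, was at 3121 and 6957 CPM in WT1 and WT2 and at 349 to 439 CPM in the KO mice, and at 0 in WT3. In germinal centre B cells Ly6c2 was at most 12.7 CPM.

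Some of the largest rises lay outside the lists. Slpi, a secreted inhibitor of leukocyte proteases, averaged 27266 ± 23245 CPM in cells with at least 3 conditions and 257 ± 50.1 CPM in germinal centre B cells (log2 difference 6.22, SE 0.22, edgeR adjusted p = 5.65e-175). Its lowest value was 2680 CPM in KO3 and its highest 62279 CPM in WT3, and each lay above the 333 CPM that was the germinal centre maximum. The SE and adjusted p of Slpi do not measure this spread between mice. Slpi was at 43864 CPM in rich cells and 469 CPM in poor cells, against 269 CPM in germinal centre B cells. Prg2, known as an eosinophil granule protein, had 268, 322 and 1852 CPM in the KO mice and 792, 85.9 and 2549 CPM in the WT mice, against 0.698 to 3.31 CPM in germinal centre B cells. Trf, which encodes transferrin, had 44 UMIs in cells with at least 3 conditions and 0 in germinal centre B cells. With a floor of 3 UMIs over the class, it was at least 706-fold higher. The membrane proteins Tmem176a and Tmem176b rose by 6.41 (SE 0.49) and 7.0 (SE 0.37), and the RNA-binding protein Rbm47 by 5.69 (SE 0.45). Atxn1 rose by 5.24 (SE 0.53). Ckap4, which shapes the sheets of the endoplasmic reticulum, had 56 UMIs in cells with at least 3 conditions and 9 in germinal centre B cells, a ratio of 299 (147 to 689). The ratios were 170 (94.4 to 325) for Selenom and 155 (71.5 to 372) for Oosp1.

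**Figure D2:**
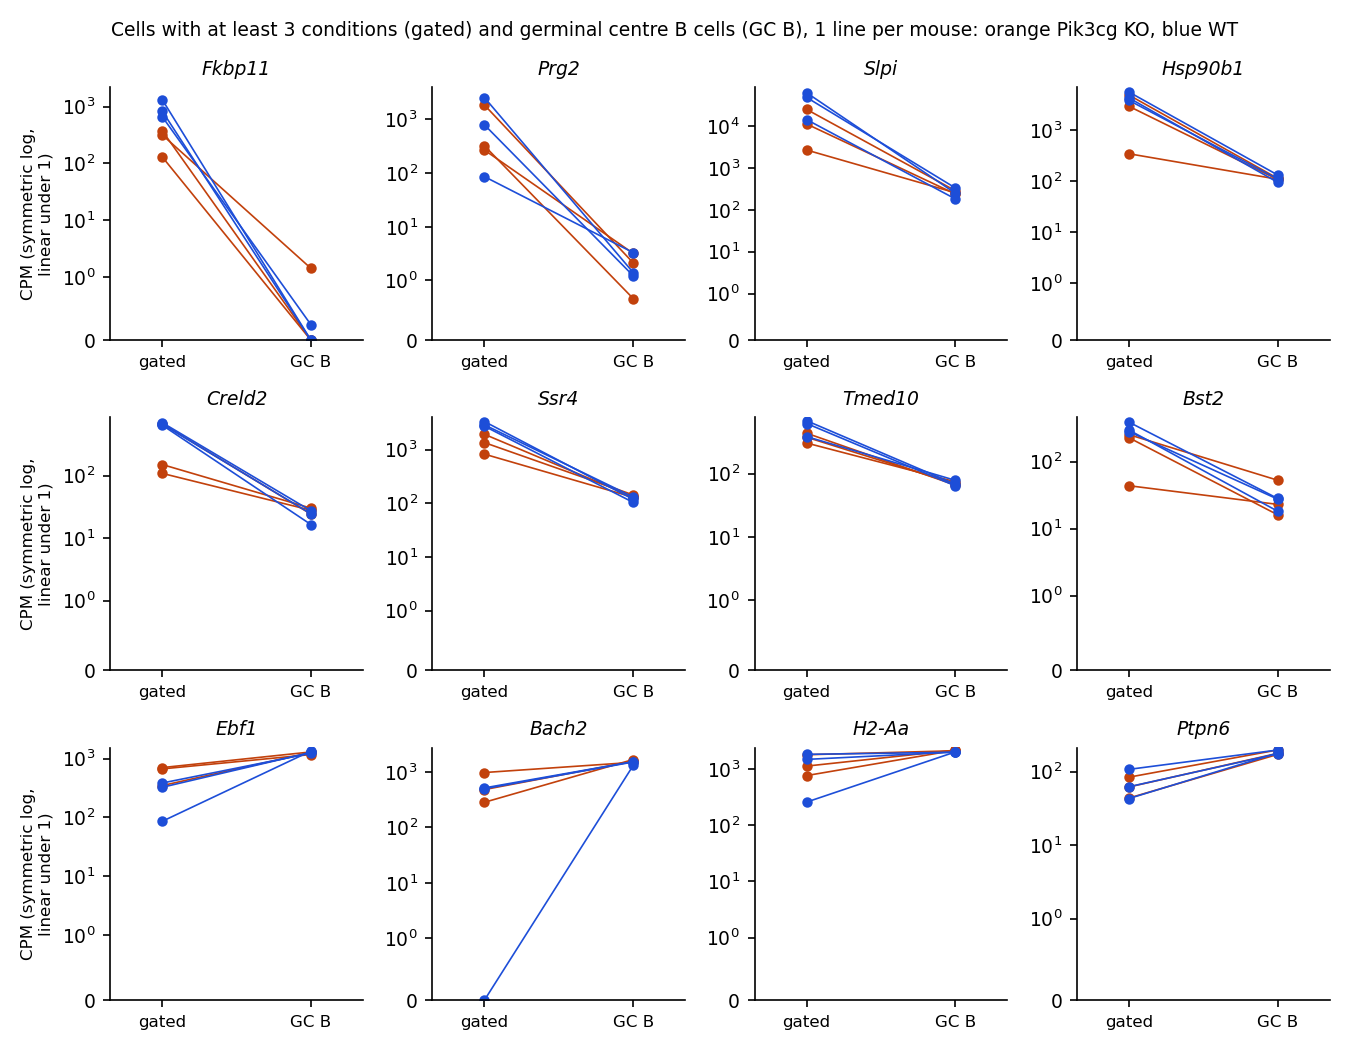
Each panel shows the CPM of 1 gene (symmetric log axis, linear under 1) in cells with at least 3 conditions, on the left, and in germinal centre B cells, on the right, with 1 line per mouse. Fkbp11, Prg2, Slpi, Hsp90b1, Creld2, Ssr4, Tmed10 and Bst2 lay higher and Ebf1, Bach2, H2-Aa and Ptpn6 lower in the gated cells of each of the 6 mice. KO3 (3 cells, most of them immunoglobulin-poor) was often closest to the germinal centre level among the rises.

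The machinery of protein folding in the endoplasmic reticulum rose. Of the unfolded protein response and folding list 23 of 27 members were higher and 0 lower in cells with at least 3 conditions (median 2.11), and 17 of 27 were higher in the whole gate (median 0.65). Against deeper germinal centre B cells 24 of 26 were higher with at least 3 conditions. Over all genes 6.94% were higher with at least 3 conditions, 6.08% in the whole gate and 10.4% with at least 3 conditions against deeper cells. Hsp90b1, the chaperone GRP94, had 2968, 4928 and 349 CPM in KO1, KO2 and KO3 and 5652, 4337 and 3876 CPM in WT1, WT2 and WT3, against 95.9 to 134 CPM in germinal centre B cells. The groups did not overlap, and the log2 difference was 4.81 (SE 0.25), with an edgeR adjusted p of 2.94e-80. KO3 lay far below the other mice, a spread that this SE and adjusted p do not measure. Pdia4, a disulfide isomerase, rose by 5.06 (SE 0.30), Creld2, a folding factor for disulfide-rich proteins, by 4.13 (SE 0.29), and Sdf2l1, a partner of the chaperone BiP, by 3.49 (SE 0.28). Pooled Hsp90b1 was at 6236 CPM in rich cells and 165 CPM in poor cells, against 113 CPM in germinal centre B cells.

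Genes that bring nascent chains into the endoplasmic reticulum moved in the same direction. Of the translocation, signal peptide and glycosylation list 23 of 25 were higher and 1, Stt3b, named after its values were seen, was lower in cells with at least 3 conditions (median 1.76), and 15 of 25 were higher and 1 lower in the whole gate (median 0.55). Ssr4, a subunit of the translocon-associated complex that the plasma cell list holds, averaged 2190 ± 980 CPM in cells with at least 3 conditions and 127 ± 13.5 CPM in germinal centre B cells (log2 difference 3.98, SE 0.24, edgeR adjusted p = 1.49e-57). Spcs3 and Spcs1, subunits of signal peptidase, rose by 3.15 (SE 0.29) and 2.34 (SE 0.24). The oligosaccharyltransferase genes Ddost and Krtcap2 rose by 2.84 (SE 0.28) and 2.66 (SE 0.25), and the channel gene Sec61b by 1.85 (SE 0.21). Of the vesicle transport list 14 of 26 were higher and 0 lower (median 1.08), and 6 of 24 were higher in the whole gate. Over all genes 6.94% were higher with at least 3 conditions and 6.08% in the whole gate. Tmed10, a cargo receptor between the endoplasmic reticulum and the Golgi, rose by 2.69 (SE 0.27), Kdelr1, which returns escaped chaperones, by 1.97 (SE 0.38), and the lectin Lman2 and the coat subunit Cope by 1.61 each (SE 0.31 and 0.27).

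B cell identity genes were lower. In cells with at least 3 conditions 18 of 19 tested members fell and 0 rose (median -1.55), and in the whole gate 16 of 19 fell (median -0.51). Ebf1, a transcription factor of early B cell commitment, had 671, 706 and 349 CPM in KO1, KO2 and KO3 and 326, 85.9 and 385 CPM in WT1, WT2 and WT3, against 1178 to 1353 CPM in germinal centre B cells. The groups did not overlap (log2 difference -1.60, SE 0.24, edgeR adjusted p = 2.44e-09). Bach2, a repressor of plasma cell differentiation, changed by -1.79 (SE 0.24) and was at 0 in the 4 cells of WT2. Pax5, the factor that maintains B cell identity and another gene named after its values were seen, changed by -1.53 (SE 0.31, edgeR adjusted p = 2.64e-05). Pooled Pax5 was at 11.7 CPM in rich cells and 282 CPM in poor cells, against 325 CPM in germinal centre B cells. Id3, an inhibitor of E proteins, changed by -2.07 (SE 0.36), and it had 0 UMIs in rich cells, at least 19.7-fold lower than in germinal centre B cells by the floor of 3 UMIs. Swap70, a signalling adaptor of B cells, changed by -1.89 (SE 0.32), Cd22, an inhibitory coreceptor, by -1.85 (SE 0.35), and Bank1, an adaptor of the B cell receptor, by -2.20 (SE 0.41). The complement receptor gene Cr2 had 3 UMIs in cells with at least 3 conditions, a ratio to germinal centre B cells of 0.105 (95% exact Poisson interval 0.0216 to 0.307, counting error only). Against deeper germinal centre B cells 10 of 18 members fell with at least 3 conditions, and 1 of 19 fell in the whole gate.

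Other falls touched antigen presentation and B cell receptor signalling. Cd86, a costimulatory ligand for T cells, changed by -2.43 (SE 0.49) and had 0 UMIs in rich cells, at least 9.25-fold lower than in germinal centre B cells. The transcriptional regulator gene Zfp608 changed by -3.29 (SE 0.53). Pld4 had 0 UMIs in cells with at least 3 conditions and was at least 5.01-fold lower. Gsn, the actin-severing gelsolin, had 2 UMIs, a ratio of 0.0993 (95% exact Poisson interval 0.0120 to 0.360). Of the MHC class II list 5 of 11 genes fell and 0 rose in cells with at least 3 conditions (median -0.87), and 10 of 11 fell in the whole gate (median -0.46). Over all genes 5.19% fell with at least 3 conditions and 4.49% in the whole gate. H2-Aa, an MHC class II chain, averaged 1204 ± 615 CPM, against 2068 ± 82.5 CPM in germinal centre B cells (log2 difference -0.87, SE 0.22, edgeR adjusted p = 0.00107). H2-Eb1 changed by -0.90 (SE 0.21), H2-Ob by -1.08 (SE 0.30) and H2-DMb1 by -1.49 (SE 0.46), and none of these 4 passed against deeper germinal centre B cells (0 of 11 list members fell and 1 rose, Ctss, the protease that trims the invariant chain, by 1.12 with SE 0.29). Cd74, the invariant chain, had 8484 ± 2915 CPM with at least 3 conditions and 9534 ± 545 CPM in germinal centre B cells (log2 difference -0.23, SE 0.17, edgeR adjusted p = 0.466). In the whole gate Cd74 passed with -0.32 (SE 0.06, edgeR adjusted p = 0.00115), while pooled CPM was 9096 in rich and 7296 in poor cells, against 9386 in germinal centre B cells.

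Of the B cell receptor signalling list 7 of 15 genes fell and 0 rose in cells with at least 3 conditions (median -0.83), and 5 of 15 fell in the whole gate. Lyn, the kinase that starts receptor signalling, changed by -1.35 (SE 0.31), the phosphatase gene Ptpn6 by -1.43 (SE 0.35) and Prkcb, a protein kinase C, by -1.34 (SE 0.34). Against deeper germinal centre B cells 3 of 15 fell and Prkcb did not pass (edgeR adjusted p = 0.0849). Of the PI3K list 2 of 14 genes fell and 0 rose with at least 3 conditions (median -0.58). Over all genes tested 5.19% fell and the median was -0.19, so this small count is not read as a result about the list. Against deeper germinal centre B cells 1 of 9 PI3K genes fell. Among them Pik3ap1, a PI3K adaptor downstream of the B cell receptor, fell by 1.46 on the log2 scale (SE 0.35). Against deeper cells Pik3ap1 did not pass (edgeR adjusted p = 0.0532). Pik3cg, the gene deleted in the KO mice, did not pass in the whole gate (-0.50, edgeR adjusted p = 0.241) or with at least 3 conditions (0.51, edgeR adjusted p = 0.588). Its RNA was counted in germinal centre B cells at 23.5, 23.2 and 28.8 CPM in KO1, KO2 and KO3 and at 28.4, 19.8 and 29.6 CPM in WT1, WT2 and WT3, which overlap.

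**Figure D3:**
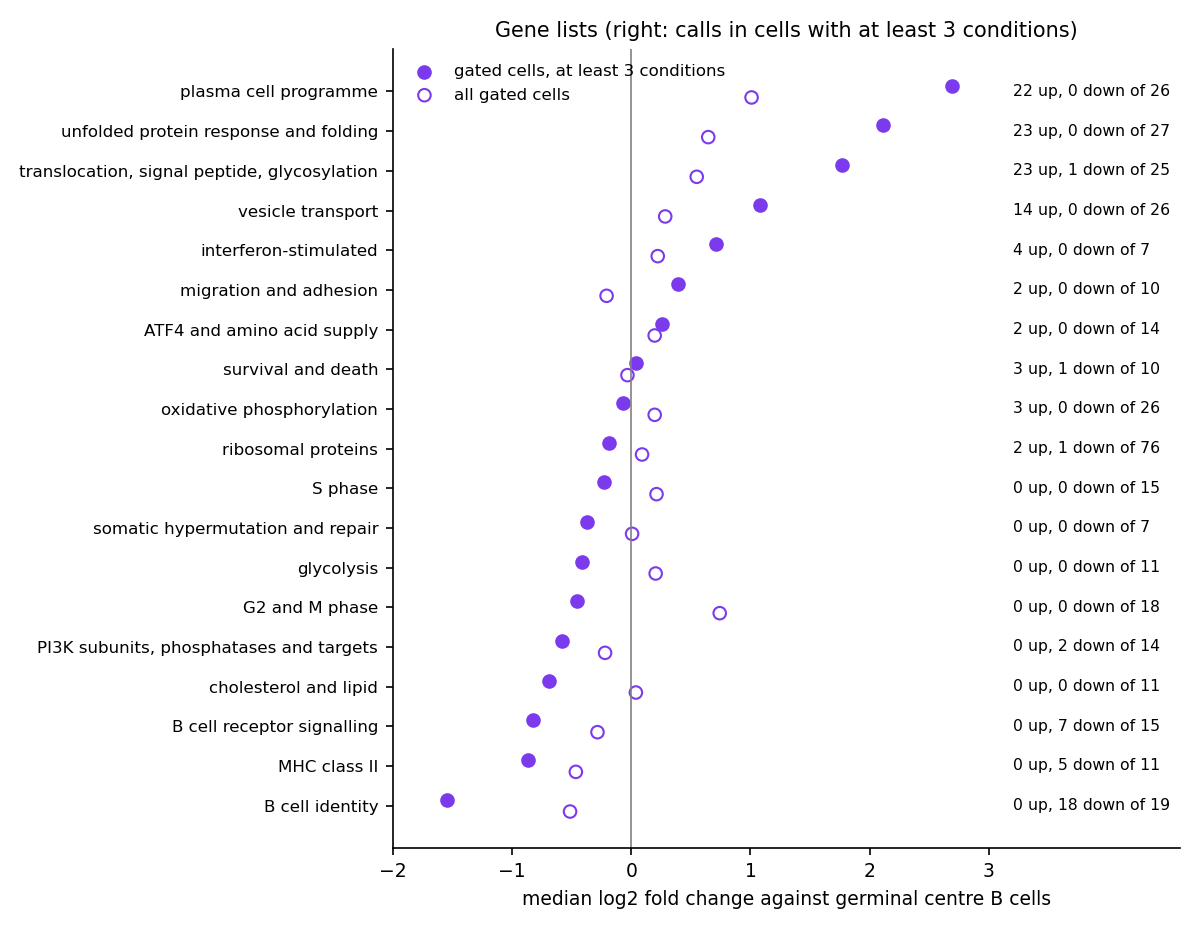
Points give the median log2 fold change of each gene list against germinal centre B cells for cells with at least 3 conditions (filled) and for all gated cells (open). The numbers on the right count the genes past the threshold with at least 3 conditions, from 22 of 26 higher in the plasma cell programme to 18 of 19 lower in B cell identity.

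In the whole gate 17 of 18 tested G2 and M phase genes, which run mitosis, rose (median 0.74), among them the mitotic kinase gene Plk1 (1.34, edgeR adjusted p = 1.86e-05), and 3 of 15 S phase genes rose. With at least 3 conditions 0 of 18 and 0 of 15 passed (medians -0.45 and -0.23). Against deeper germinal centre B cells 2 of 18 G2 and M phase genes rose in the whole gate, and 5 of 15 fell with at least 3 conditions. Plk1 was at 3.90 CPM in rich cells and 85.0 CPM in poor cells, against 31.0 CPM in germinal centre B cells. The depth of the cells moved with this result, and its part was not tested beyond the deeper cells.

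Against other B cells, cells with at least 3 conditions differed in 2318 of 8451 genes (27.4%), 726 higher (8.59%) and 1592 lower (18.8%). The whole gate differed in 5064 of 9206 (55%), 2418 higher (26.3%) and 2646 lower (28.7%). With at least 3 conditions 17 of 17 tested G2 and M phase genes and 13 of 14 S phase genes rose. These cells had a median of 11858 UMIs, against 2444 in other B cells, and no deeper other B cells were compared. They include 16 poor cells, in which pooled Plk1 was above its level in rich cells. The part of depth and of poor cells in these rises was not tested. All 19 tested B cell identity genes and all 11 MHC class II genes fell (medians -2.34 and -1.91, against -0.40 over all genes). Of the plasma cell programme 21 of 27 rose and 2 fell, and of the folding list 23 of 27 rose. Slpi was higher by 10.11 (SE 0.31), and H2-Aa changed by -2.16 (SE 0.24).

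The counts for the other lists are for cells with at least 3 conditions, where 12.1% of all genes passed. Itga4, an integrin chain of homing, and Selplg, the ligand of P-selectin, rose by 2.35 (SE 0.36) and 3.47 (SE 0.58), the risen members among 10 tested migration genes. Of 10 survival and death genes 3 rose (Tnfrsf17, Bcl2l11 and Cflar) and 1 fell (Tnfrsf13c, the BAFF receptor), and the death inducer Bcl2l11 (Bim) rose by 2.24 (SE 0.34), higher in 4 of 6 mice. Phgdh and Pycr1, enzymes of serine and proline synthesis, were the risen members among 14 genes of ATF4 and amino acid supply. Phgdh rose by 0.97 (SE 0.30), and Pycr1 rests on 11 UMIs in cells with at least 3 conditions and 6 in germinal centre B cells, a ratio of 88.2 (29.9 to 291). Like Tnfrsf17, which had 8 UMIs in germinal centre B cells, Pycr1 could only be found higher. Of the interferon-stimulated list 4 of 7 rose. Bst2 (tetherin) averaged 247 ± 114 CPM, against 27.6 ± 13.2 CPM in germinal centre B cells (log2 difference 3.21, SE 0.30, edgeR adjusted p = 6.81e-25), and Isg15 rose by 2.39 (SE 0.47). Of 26 oxidative phosphorylation genes 3 rose (Ndufa1, Ndufa4 and Uqcrq), of 76 ribosomal protein genes 2 rose (Rpl10 and Rps27l) and 1 fell (Rps27), and 0 of 11 glycolysis, 0 of 11 cholesterol and 0 of 7 hypermutation and repair genes passed.

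Immunoglobulin genes were set apart from these fits and compared as a share of each mouse's UMIs. The share was 4.26%, 5.03% and 4.0% in gated cells of KO1, KO2 and KO3 and 7.77%, 14.9% and 15.3% in those of WT1, WT2 and WT3, against 0.648% to 0.737% in germinal centre B cells. The difference was 7.86 percentage points (SD 5.22, n = 6 mice), higher in 6 of 6 mice. It came mostly from rich cells (37.8% summed), since poor cells (0.711%) lay near germinal centre B cells (0.672%). Rich cells numbered 4, 16 and 3 in KO1, KO2 and KO3 and 9, 4 and 4 in WT1, WT2 and WT3. Their share was 30.2% to 54.6% in KO and 39.7% to 44.9% in WT mice. In poor cells it was 0.660% to 0.729% and 0.715% to 0.919%. The genotypes overlap in both. The two-sided exact sign-flip permutation p was 0.031, the smallest that 6 mice can give, and 0.0938 after Benjamini-Hochberg adjustment over 6 readouts. With at least 3 conditions the difference was 28.3 points. The most abundant heavy chain constant gene was Ighg1 in 28, Ighm in 6, Ighg2b in 5 and Ighg3 in 1 of the 40 rich cells, and Ighg1 in 152 of the 205 poor cells. This gene held a median of 99.9% of a cell's heavy chain constant UMIs in rich cells and 100% in poor cells.

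Receptor contigs were joined by barcode and lane. A heavy chain was recovered in 33 of 40 rich cells (82.5%, 95% Clopper-Pearson interval 67.2 to 92.7) and in 81 of 205 poor cells (39.5%, 32.8 to 46.6), against 563 of 3639 germinal centre B cells (15.5%, 14.3 to 16.7). Median heavy chain contig UMIs were 67 in rich cells, 5 in poor cells and 3 in germinal centre B cells. The isotype of the contig equalled the most abundant constant gene in 33 of 33 rich and 76 of 81 poor cells. Of the rich heavy chains 22 were IgG1, 5 IgG2B, 5 IgM and 1 IgG3. Of 33 rich chains 0 were IgG2C or IgA, which allows a share of up to 9.09% for each. Of 559 germinal centre chains with an isotype 358 were IgG1, 73 IgG2C and 49 IgM. Switched isotypes made up 103 of 114 gated chains (90.4%), and the difference from germinal centre B cells within mice was -13.0 points (SD 40.4, two-sided exact sign-flip permutation p = 0.781). That value rests on WT2, where 0 of 4 gated chains were switched.

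The median was 4 substitutions in rich cells (interquartile range 1 to 6, 33 cells) and 7 in poor cells (4 to 12, 81 cells), against 7 in germinal centre B cells (3 to 12, 563 cells) and 0 in other B cells. Unmutated chains numbered 8 of 33 in rich cells and 3 of 81 in poor cells, against 41 of 563 in germinal centre B cells. Of the 8 in rich cells 3 belonged to 1 IgM clone of WT2, so they are not independent. Within mice the mean of gated cells was lower than that of germinal centre B cells by 2.19 (SD 2.87), and lower in 5 of 6 mice (two-sided exact sign-flip permutation p = 0.0938, adjusted 0.188). Without WT2 the difference was -1.31 (SD 2.09, n = 5 mice). With at least 3 conditions the mean was lower by 3.66 and higher in 0 of 6 mice (adjusted exact p = 0.125). Among switched chains the medians were 4.5 in rich cells and 8 in poor cells, against 7 in germinal centre B cells.

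**Figure D4:**
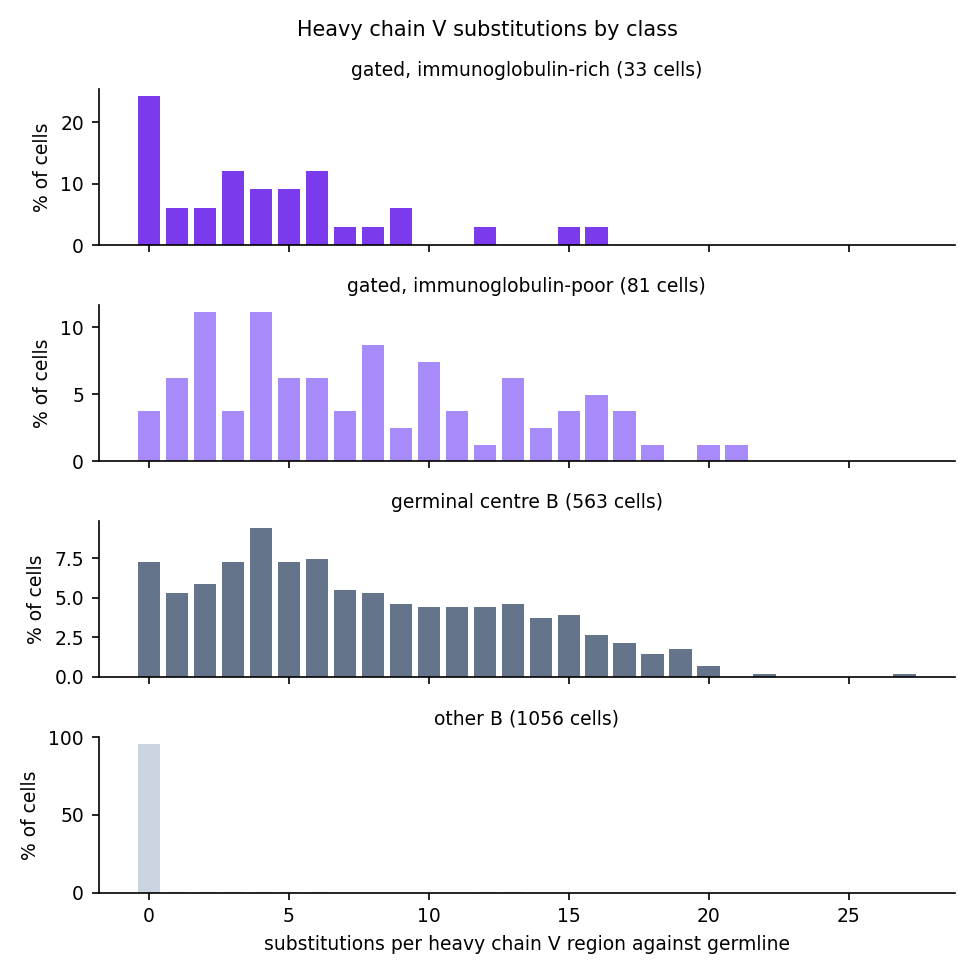
Bars give the percentage of cells with each number of substitutions in the heavy chain V region, for immunoglobulin-rich gated cells, immunoglobulin-poor gated cells, germinal centre B cells and other B cells, from top to bottom. The rich cells have their highest bar at 0 substitutions, where 3 of 8 cells are of 1 clone of WT2, and a median of 4. The poor cells and germinal centre B cells spread around a median of 7.

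IGHV1-72 (GRCm38, chr12:115757984-115758461, minus strand, a V gene segment of the heavy chain locus) was used by 7 of 33 rich chains and 20 of 81 poor chains, against 103 of 563 in germinal centre B cells (18.3%) and 25 of 1059 in other B cells (2.36%). The difference between gated and germinal centre B cells within mice was -0.26 points (SD 19.6, two-sided exact sign-flip permutation p = 0.969). Lambda light chains accompanied 7 of 7 rich and 18 of 20 poor IGHV1-72 chains. The leucine change at codon 33, written W33L with codons counted from the start of the mature V region, was present in 6 of 7 rich cells (95% Clopper-Pearson interval 42.1% to 99.6%) and 10 of 20 poor cells (27.2% to 72.8%). It was present in 46 of 103 germinal centre B cells (44.7%) and 0 of 25 other B cells. The intervals cover counting error only, cells of 1 clone are not independent, and the shares were not tested between classes.

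The windows around codon 33 are shown because they carry this change cell by cell. They run 5′ to 3′ on the coding strand, bases 76 to 120 of the mature V region. In the germline line, from the GENCODE transcripts, capitals mark the codon, and in the contigs of the 7 rich cells they mark bases that differ from germline. All 7 were IgG1 with an IGLV1 lambda chain.
germline IGHV1-72: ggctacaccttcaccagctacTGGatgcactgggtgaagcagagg
KO2 cell 1: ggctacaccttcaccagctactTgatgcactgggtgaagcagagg
KO2 cell 2: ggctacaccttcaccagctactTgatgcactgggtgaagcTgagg
KO2 cell 3: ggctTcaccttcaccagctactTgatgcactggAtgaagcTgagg
KO2 cell 4: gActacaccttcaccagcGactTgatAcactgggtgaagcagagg
KO2 cell 5: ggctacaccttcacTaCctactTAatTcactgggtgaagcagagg
KO3 cell 6: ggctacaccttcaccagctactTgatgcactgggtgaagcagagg
WT1 cell 7: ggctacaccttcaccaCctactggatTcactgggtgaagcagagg

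The substitution G98T, which gives W33L, was in the 5 KO2 cells and the KO3 cell, and the WT1 cell lacked it. These V regions differed widely in their total load. KO2 cell 1 carried 2 substitutions over the V region and KO3 cell 6 carried 1, so G98T was the only change in the V region of that KO3 cell. KO2 cells 4 and 5 carried 15 and 16. The heavy chain contigs of KO2 cell 3 and WT1 cell 7 rest on 1 UMI each, against 12 to 609 UMIs in the others. Their sequences, with the lack of G98T in WT1 cell 7, therefore rest on 1 molecule each. KO2 cells 2 and 3 shared G98T and A116T but differed in CDR3 sequence, and whether they are related was not tested. Among the 27 gated IGHV1-72 chains the commonest substitutions after G98T (16 cells) were A160T (11 cells), G197A (9 cells) and A176G (8 cells).

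Clones, defined by mouse, V gene, J gene and an identical CDR3 nucleotide sequence, linked some gated cells to the germinal centre. Chains that differ at any base of the CDR3 count as separate clones, so this definition can split related cells and undercount sharing. Heavy chains were recovered in 563 of 3639 germinal centre B cells and 81 of 205 poor cells. Most possible partners of a clone could therefore not be seen, which undercounts sharing further. Of 33 rich cells 11 (33.3%) and of 81 poor cells 32 (39.5%) belonged to a clone of at least 2 retained cells, against 36.2% of germinal centre B cells and 0.378% of other B cells. A germinal centre B cell shared the clone of 6 rich and 32 poor cells. Cells of 1 clone share their origin and are not independent.

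In KO2 a clone of IGHV1-85 with IGKV10-96 held 1 rich cell with 156 heavy chain UMIs, 2 poor cells with 13 and 4, and 6 germinal centre B cells with 1 to 4, all IgG1 and with 2 to 7 substitutions. A clone of IGHV1-72 held KO2 cell 5 with 16 substitutions and 2 germinal centre B cells with the same number, and a further IgG1 cell, outside the classes compared, with 11. A clone of IGHV9-1 held a rich IgG1 cell with 751 UMIs beside 2 germinal centre B cells of isotype IgG3. A clone of IGHV1-26 in WT3 held a rich IgG2B cell with 3 substitutions and an IgG1 germinal centre B cell with 12. Rich and germinal centre B cells of 1 clone thus shared an isotype in some clones and differed in others.

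Among clones with at least 2 retained cells, 2 held rich cells alone under this definition by identical CDR3. Partners without a recovered heavy chain could not be seen. In WT2, 3 IgM cells shared an unmutated IGHV11-2 (GRCm38, chr12:114048241-114048812, minus strand) with IGHJ1 and an IGKV14-126 light chain, a pairing known from phosphatidylcholine-binding B-1 cells. In WT3, 2 IgG1 cells with 928 and 362 heavy chain UMIs shared IGHV6-3 with IGKV14-111 and had 3 and 4 substitutions. A poor IgG1 cell of WT3 used the same V and J genes, with a CDR3 of the same length, 45 bases, but another sequence. It counts as a clone of its own, and whether it is related was not tested. The CDR3 sequences of the 2 clones of rich cells are shown because they define these clones.
WT2 IGHV11-2 clone: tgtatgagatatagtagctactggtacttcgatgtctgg
WT3 IGHV6-3 clone: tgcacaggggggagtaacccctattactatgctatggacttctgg

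Cell numbers were compared by genotype without a gene test, because the cells were few. The gate held 36, 91 and 39 cells in KO1, KO2 and KO3 and 55, 8 and 16 in WT1, WT2 and WT3. They made up 1.68% ± 0.503 of retained cells in KO mice and 0.806% ± 0.783 in WT mice (SD, n = 3 each; two-sided exact permutation p = 0.3, smallest possible 0.1). As a share of B-lineage cells the values were 2.18% ± 0.629 in KO and 1.20% ± 1.10 in WT mice (exact permutation p = 0.3). WT1, with 1.70%, lay among the KO mice, and without it the difference of retained cells was 1.32 points (exact permutation p = 0.1). With at least 3 conditions the shares were 0.269% ± 0.164 in KO and 0.214% ± 0.111 in WT mice (exact permutation p = 0.7).

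Germinal centre B cells numbered 495, 1286 and 736 in KO1, KO2 and KO3 and 743, 119 and 260 in WT1, WT2 and WT3. Per 1000 germinal centre B cells, gated cells numbered 72.7, 70.8 and 53.0 in the KO mice and 74.0, 67.2 and 61.5 in the WT mice, which overlap. Cells with at least 3 conditions numbered 14.1, 14.0 and 4.08 per 1000 in the KO mice and 14.8, 33.6 and 23.1 in the WT mice. Rich cells numbered 8.08, 12.4 and 4.08 per 1000 in the KO mice and 12.1, 33.6 and 15.4 in the WT mice. The values per 1000 were computed after seeing the data, rest on 3 to 18 cells per mouse with at least 3 conditions, and were not tested.

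**Figure D5:**
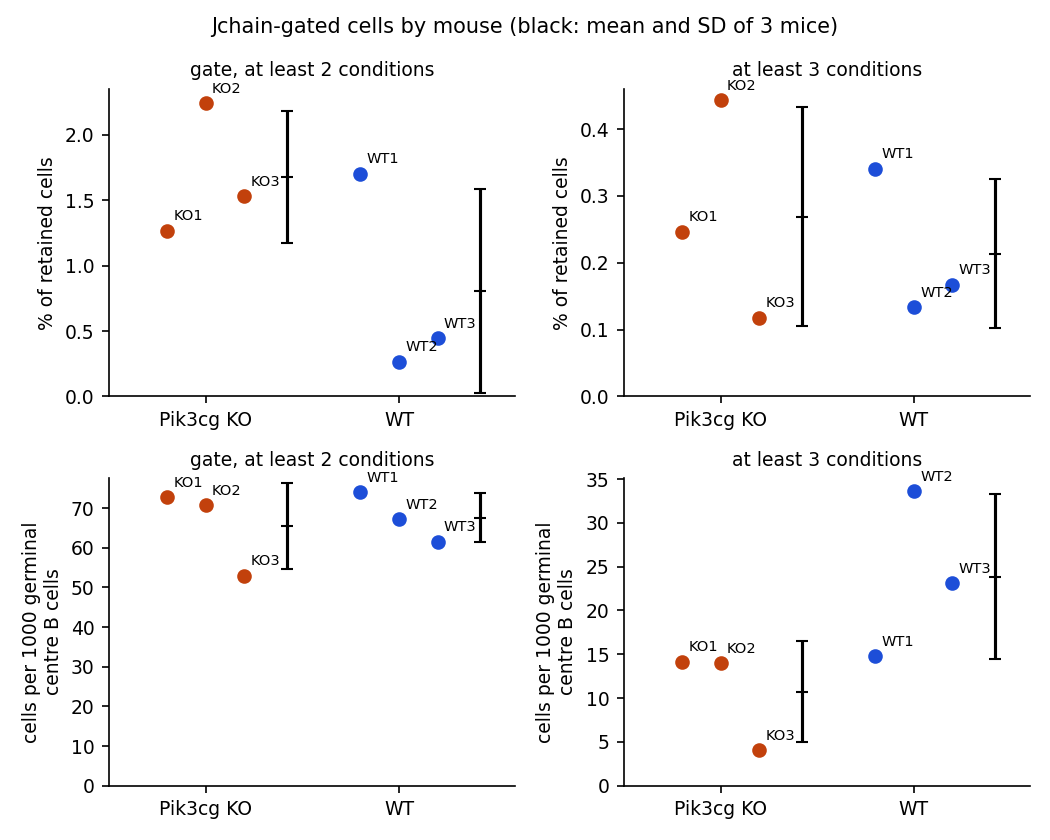
Points are mice, Pik3cg KO on the left and WT on the right of each panel, with the mean and SD of 3 mice in black. The upper panels give gated cells and cells with at least 3 conditions as a percentage of retained cells, where WT1 lies among the KO mice, and the lower panels give them per 1000 germinal centre B cells.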

How the data were processed

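Raw UMI counts per gene and barcode were deposited. Per the file headers the authors used Cell Ranger 7.0.1, and per the submitters' processing notes the build was mm10. Contig tables with UMI counts give the receptors, and hashtag tables give the mouse. Lanes are repeats of 1 pool and were summed. Of 23516 barcodes 19270 carried 1 hashtag, and 19262 with at least 500 UMIs and at most 10% mitochondrial UMIs were retained, with 67909699 UMIs in all. Nothing in the labels says how hashtags were called.

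For each mouse and class, counts outside the 392 immunoglobulin genes were added up and fitted with edgeR 4.0.16 (quasi-likelihood, TMM, filterByExpr, mouse as block) in R 4.3.3. Each mouse is its own pair, since both classes come from the same animal. DESeq2 1.42.0 was an alternative. The genes of both gates were not tested, and the fits were tested on simulated data. Each SE was derived from the log2 difference and its F statistic, and is no direct measure of the spread between mice. Genes named are the 12 largest rises and falls past the threshold with at least 20 CPM and 1 direction in all 6 mice, and up to 4 members per list. Some of the genes that this rule selects are not described, and genes outside it are marked. The result of 1 gene is not reported here. Members, lists and tests were chosen with earlier results of these data known. Substitutions were counted against GENCODE vM21 transcripts (GRCm38). Intervals and the floor of 3 UMIs cover counting error only. Tests of single readouts used scipy 1.17.1.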

Additional observations from a re-analysis of the deposited data

Results flagged for a closer look

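In cells with at least 3 conditions IGHV1-72 made up 100% of the heavy chains of KO3, which stood apart from the 0% to 35.7% of the other 5 mice and rests on 2 of 2 chains. In the whole gate switched isotypes made up 0% of the heavy chains of WT2 (0 of 4 chains), against 72.7% to 100% in the other 5 mice, and 3 of these 4 chains belonged to the unmutated IGHV11-2 clone. Of 18 sets of 6 mice checked for a mouse far from the others 2 had one, and chance gives about 1 in 20. Outside the retained cells, 74 barcodes with several hashtags met the gene gate. Their median was 14236 UMIs, and 10 of them had at least 5% immunoglobulin UMIs.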

How the results depend on the processing

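The number of genes called for the whole gate against germinal centre B cells was 812. It was 518 with DESeq2, 315 with lane 1 alone, 310 with lane 2 alone, 107 against deeper germinal centre B cells, 541 with at least 3 conditions and deeper cells, and 329 (without KO2) to 978 (without WT3) with 1 mouse left out. It was 492 without KO1 and 526 without KO3. Lanes alone leave fewer cells and genes tested, and the other causes were not tested. With at least 3 conditions 734 genes were called, and 471 (without WT1) to 696 (without KO3) with 1 mouse left out. Without the replicate block of the mouse, 1023 genes were called for the whole gate and 980 with at least 3 conditions. Without a filter on low counts 364 genes were higher and 557 lower, against 467 and 345 with it. Against other B cells 5064 genes were called, and 2318 with at least 3 conditions. Differences in receptor shares reversed, and none passed the threshold in any setting. The switched share was 3.05 points with lane 1 alone and ran from -18.7 to 3.12 (without WT2) with 1 mouse left out. The lambda share was -1.0 in the main comparison, 11.3 with lane 1 alone, 6.10 with at least 20 Jchain UMIs, 5.10 with at least 3 conditions, and -4.54 to 2.88 with 1 mouse left out. The IGHV1-72 share was 11.5 with lane 1 alone, 4.91 with at least 20 Jchain UMIs, 0.20 with each clone counted once, 5.78 with at least 3 conditions, and -6.87 to 4.69 with 1 mouse left out. Of the genes named, Cd74 turned to 0.18 with at least 3 conditions against deeper cells, Pik3cg to 0.51 with at least 3 conditions and 0.89 against deeper cells as well, and Plk1 to -0.26 with at least 3 conditions, a set in which it ran from -0.50 (without KO1) to 0.020 (without WT1). Over the other values of named genes 1438 kept their direction and side of the threshold and 15 gained the call. A further 88 lost the call, 28 of them with the whole gate against deeper cells. The settings share most of their cells, so these counts are not independent. Depth limits the falls of low genes, since 49 cells were compared with at least 3 conditions.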
